A study of Drosophila melanogaster with 2 samples.

Results

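The 73 protein-coding genes of Drosophila melanogaster whose symbols begin with mRpL or mRpS were described by the accessible sites at their ends in S2 cells. They were chosen by symbol among 13946 protein-coding genes of the RefSeq gene table of Release 6, the assembly that dm6 names. The set holds 47 genes for the large ribosomal subunit (mRpL) and 26 for the small subunit (mRpS). The assay was ATAC-seq, which reads out where a transposase, Tn5, can insert adapters into accessible DNA. The series had 1 group of 2 libraries of S2 cells, an embryo-derived, hemocyte-like line kept at 25 °C in medium with serum. Each library came from 2000000 cells and 12 cycles of PCR, no treatment or genotype was named, and 1 peak list served both. Values per library were not used here, so no peak has a replicate error and nothing below carries a test between samples.

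The mitochondrial ribosome translates the few proteins encoded in mitochondrial DNA, which are core subunits of the respiratory chain complexes and the ATP synthase. Its RNAs come from the mitochondrial genome, but all of its proteins are encoded in the nucleus, made in the cytosol and imported. Many members descend from bacterial ribosomal proteins and keep their numbers, while most with higher numbers have no bacterial counterpart. Such genes are active in most cells, and active promoters of the fly are typically accessible, with a nucleosome-depleted stretch just upstream of the transcription start.

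Nearly all of these genes had an accessible site at an end. A peak overlapped the window of 250 bp to either side of an annotated gene end in 69 of 73 genes, or 94.5% (95% exact binomial interval 86.6 to 98.5%), against 60.4% of all protein-coding genes. A peak lay at 1 end only in 59 of them and at both ends in 10, which was 13.7% of the members (6.77 to 23.8%) and 11.7% of all protein-coding genes. The share with peaks at both ends was thus close to the background. By subunit, 45 of 47 large-subunit genes (95.7%) and 24 of 26 small-subunit genes (92.3%) had a peak. The exceptions were mRpL19, mRpL20, mRpS18B and mRpS24. The 73 genes are not replicates, and these shares describe 1 peak list.

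The height of a site is given as its pileup, the number of overlapping fragments at the summit, recovered as a whole number from the authors' fold and p-value. The fold enrichment is the authors' own ratio of that pileup to a local background. At the highest summit of each of the 69 genes the pileup had a median of 96 (quartiles 59 and 114, range 30 to 347). Over all 8421 protein-coding genes with a peak at an end the median was 98 (quartiles 62 and 150). The 2 medians were close, the members' having a 95% interval of 74 to 108, while tall sites were a smaller share among the members. The counting error of a single summit was 10.2% at a pileup of 96. A pileup of 100 or more was found at 31 of 69 members (44.9%) and at 49.2% of all such genes, which is close. A pileup above 150 was found at 7 of 69 members (10.1%, exact interval 4.18 to 19.8%) and at 24.8% of all such genes. The median fold was 6.06 for the members and 7.01 for all. By gene length the median pileups went both ways. Under 700 bp, at 700 to 999 bp and at 1000 to 1499 bp the members had 108, 85 and 99. The other protein-coding genes with a peak had 67, 81.5 and 89. At 1500 bp or more, a class with 7 members but 65.9% of the other genes, the medians were 70 and 103. These differences were not tested. Both pileup levels were chosen after the values were seen.

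**Figure D1:**
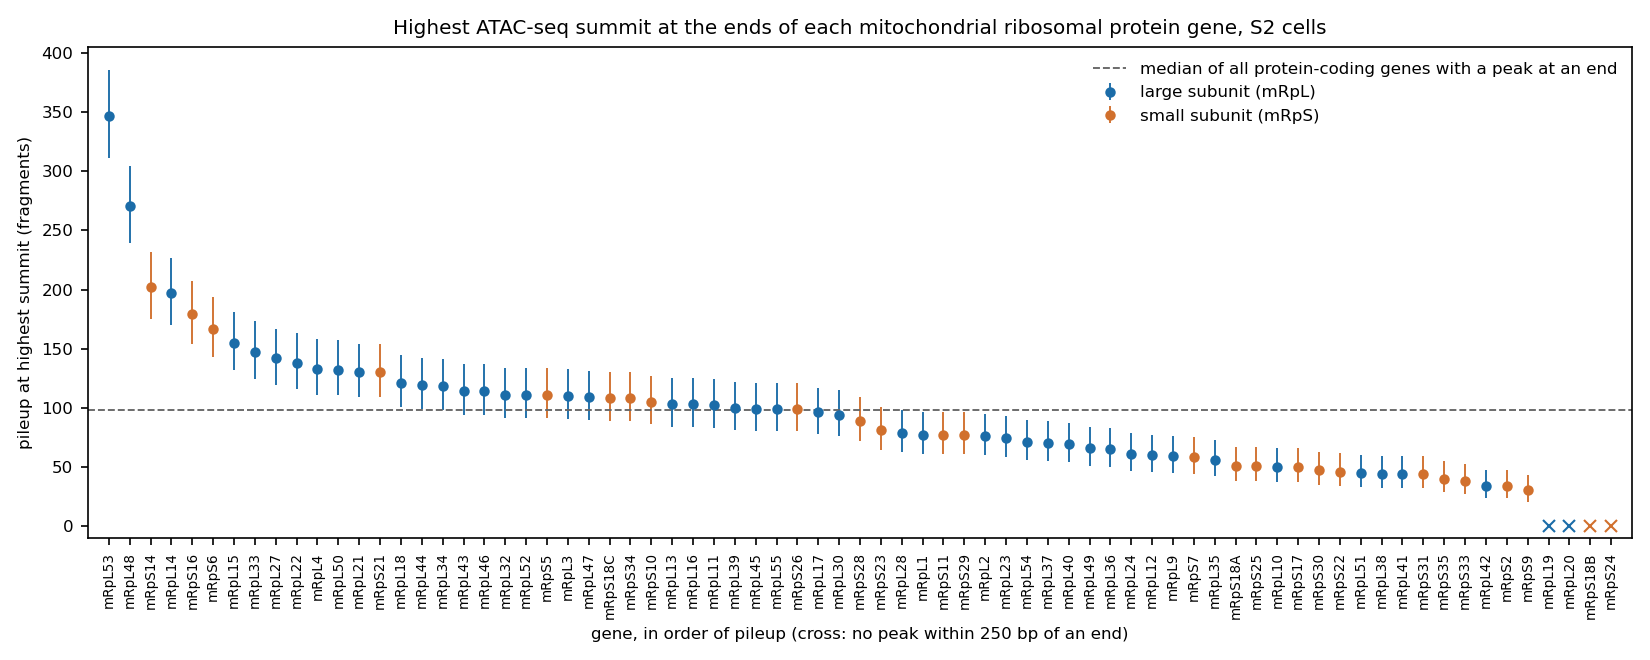
Pileup at the highest summit (fragments, vertical axis) for each of the 73 genes in order of pileup, with exact 95% Poisson intervals; blue marks large and orange small subunit genes, crosses the 4 genes without a peak, and the dashed line the median of 98 over all protein-coding genes with a peak. The values fall from 347 at mRpL53 to 30 at mRpS9, and most neighbouring intervals overlap.

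**Figure D2:**
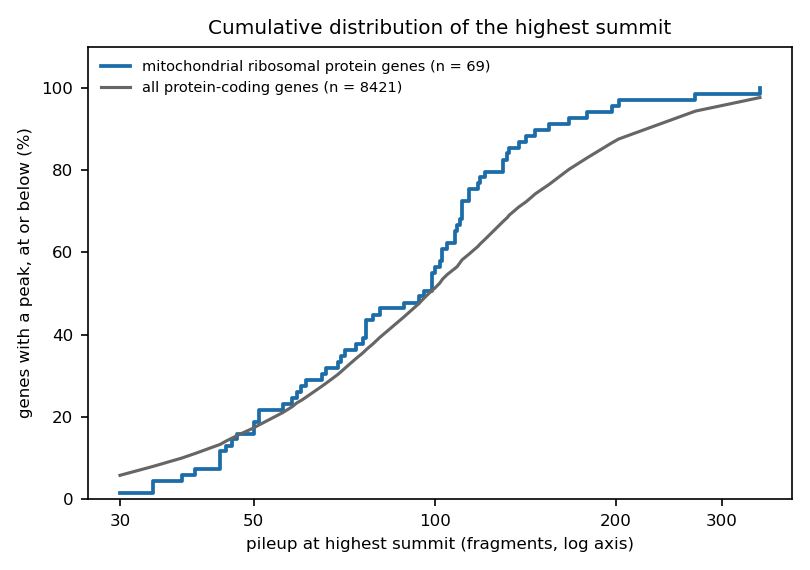
Cumulative share of genes (%) against the pileup of the highest summit (fragments, log axis) for the 69 mitochondrial ribosomal protein genes with a peak and for all 8421 protein-coding genes with a peak. The members' curve lies lower at the weakest sites and somewhat higher from a pileup of 50, with 43.5% against 36.4% at 77 and 50.7% against 48.9% at 96. Farther above the median it lies clearly higher, with 72.5% against 58.2% at 111, because fewer members have tall sites.

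Grouped by their numbers, the large-subunit genes in the bacterial range (up to 36) had peaks in 26 of 28 cases, with a median pileup of 102 and a median fold of 6.47. Those above that range, most of which encode proteins found only in mitochondrial ribosomes, had peaks in 19 of 19 cases, with a median pileup of 99. An exception among these is mRpL47, the counterpart of bacterial L29. Small-subunit genes in the bacterial range (up to 21) had peaks in 13 of 14 cases with a median pileup of 105. Small-subunit genes above it had peaks in 11 of 12 cases with a median pileup of 51 and a median fold of 4.77. The pileups of this last group ran from 38 to 108 and overlapped the ranges of the others, which were 30 to 202 for the small-subunit genes in the bacterial range, 50 to 197 for the large-subunit genes in it and 34 to 347 for those above it. The grouping was made after the values were seen and was not tested.

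The tallest site belonged to mRpL53, a large-subunit gene without a bacterial counterpart, on 2R from 13954195 to 13955664. Its peak spanned 13953978 to 13954236 and had a pileup of 347 (95% Poisson interval 311 to 386) and a fold of 14.2. The summit lay 112 bp outside the left end. CG33155 has the same annotated start and end as mRpL53, so the peak cannot be given to either. The second was mRpL48, also specific to mitochondria, on 2L from 1710462 to 1711465, with a pileup of 271 (239.7 to 305) and a fold of 16.0. Its summit at 1710435 lay in the gap of 41 bp to CG17660, 27 bp from the end of mRpL48 and 14 bp from that of CG17660. The counting intervals of these sites overlapped neither each other nor that of the next gene.

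From the third place on the intervals ran into each other. mRpS14, whose product belongs to the head of the small subunit, had a pileup of 202 (175 to 232) and the highest fold of the set, 16.8, at a summit 34 bp outside its right end on X. mRpL14, for a conserved protein of the large subunit's surface that faces the small subunit, had 197 (170.4 to 227). mRpS16 had 179, mRpS6 167, mRpL15 155, mRpL33 147, mRpL27 142 and mRpL22 138. mRpL22, whose bacterial counterpart lines the tunnel for the nascent chain, stood on a background of 9.91, the lowest in the list, and so reached a fold of 12.7. mRpS16, with more fragments, reached only 6.63 on a background of 26.2. mRpL34 was the clearest such case, with a pileup of 118 near the upper quartile but a fold of 4.13 on a background of 27.8. Order by pileup and order by fold therefore differ for these genes.

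The lowest sites were those of mRpS9, with a pileup of 30 (20.2 to 42.8) and a fold of 2.84, mRpS2 and mRpL42 with 34 each, mRpS33 with 38 and mRpS35 with 40. All but mRpL42 and mRpS35 had their summit within 5 bp of the gene end. mRpS9 is also the longest gene of the set, at 13391 bp, against 390 bp for mRpL34, the shortest. Away from its ends mRpS9 held 2 more summits, about 3.1 kb inside, with pileups of 25 and 30. In the whole set 20 genes had a summit anywhere inside. Among peaks that reached neither end window of their gene, such summits were found in mRpS9 and mRpS17 (pileup 23). Inside mRpL27 and mRpS14, summits with pileups of 96 and 57 also lay beyond the window of 250 bp. The peaks of these summits did overlap an end window.

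The 4 genes without a peak had no summit inside either. For mRpS24 on 3R the closest summits lay 449 bp beyond the right end, with a pileup of 56 and 28 bp from the end of Apc2, and 1093 bp beyond the left end. For mRpL19 on 3R the closest was a weak site of pileup 25 at 552 bp beyond the right end. For mRpS18B, 1 of 3 genes for relatives of bacterial S18, it was a site of pileup 37 at 659 bp, while the others of this trio, mRpS18A and mRpS18C, had peaks with pileups of 51 and 108. For mRpL20 on 3L it was a site of pileup 105 at 1111 bp beyond the left end, 12 bp from the end of CG11267. A site at these ends with fewer fragments than the caller required was not detectable at this depth. The lowest highest-summit pileup of any protein-coding gene was 20.

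Most highest peaks reached a neighbouring gene as well. In 46 of 69 members (66.7%, exact interval 54.3 to 77.6%) the highest peak also overlapped the window of another gene's end, against 55% of all protein-coding genes with a peak, a share inside that interval. It reached 1 other gene in 42 cases and 2 in 4 cases. The 50 genes reached included 48 protein-coding ones, and 0 peaks were shared between 2 members. Among large-subunit genes 34 of 45 (75.6%) shared their highest peak, and among small-subunit genes 12 of 24 (50%). The shared peaks had a median pileup of 101 (range 34 to 347) and the 23 unshared ones a median of 77 (range 30 to 167). These ranges overlap, and the difference was not tested.

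In 23 of the 46 shared peaks the summit lay nearer to the neighbour's end than to the member's, in 20 nearer to the member's and in 3 at equal distance. The peaks nearer to the neighbour had a median pileup of 109 and those nearer to the member 75.5. Neither this split nor these medians were counted over all protein-coding genes, and the difference was not tested. The tallest of the peaks nearer to the neighbour was that of mRpL48, described above, where both ends lay within 27 bp of the summit. Next in height were the summits of mRpL33, 326 bp from that gene and 69 bp from norpA, a phospholipase C gene, and of mRpL27. The highest summit of mRpL27, with 142 fragments, lay 236 bp from its left end but 5 bp from the end of RpL27A, a cytosolic ribosomal protein gene. Likewise the 130 fragments counted for mRpL21 were 16 bp from the end of rept, which encodes the AAA ATPase Reptin. The 119 counted for mRpL44 were 4 bp from Snr1, a gene for a subunit of the Brahma remodelling complex.

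Some of these genes had a second, lower summit at their own end. The highest summit was not the nearest one in 15 of 69 members, and in 14 of these it lay nearer to another gene's end. How often this occurs among all protein-coding genes with a peak was not counted. The nearest summit had 50 fragments at mRpL27 (19 bp inside the right end), 49 at mRpL21 (17 bp outside) and 58 at mRpL44 (2 bp outside). At mRpL32 it had 47 (2 bp inside) against 111 for the highest, 29 bp from the end of qless. At mRpS10 the nearest and the highest were level, at 103 and 105, 4 bp from mRpS10 and 6 bp from Art3, an arginine methyltransferase gene. Taking the summit nearest to its own end for every member gave a median pileup of 71, against 85 when the same was done for all protein-coding genes with a peak.

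The summit closest to a member typically sat just outside the gene. Its median position was 17 bp outside the annotated end (quartiles 2 and 36 bp), against 26 bp (2 and 67 bp) for all protein-coding genes with a peak. It lay 1 to 50 bp outside in 45 of 69 members (65.2%, exact interval 52.8 to 76.3%) and in 44.3% of all such genes. It was outside the gene in 56 members (81.2%, against 76.4% of all such genes) and inside in 13. For the 23 unshared peaks the highest summit lay between 116 bp inside, at mRpS5, and 49 bp outside, at mRpL4, with a median of 15 bp outside. Which end is the transcription start was not used here, because the gene table gives no strand, and the distance of 50 bp was chosen after the values were seen.

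**Figure D3:**
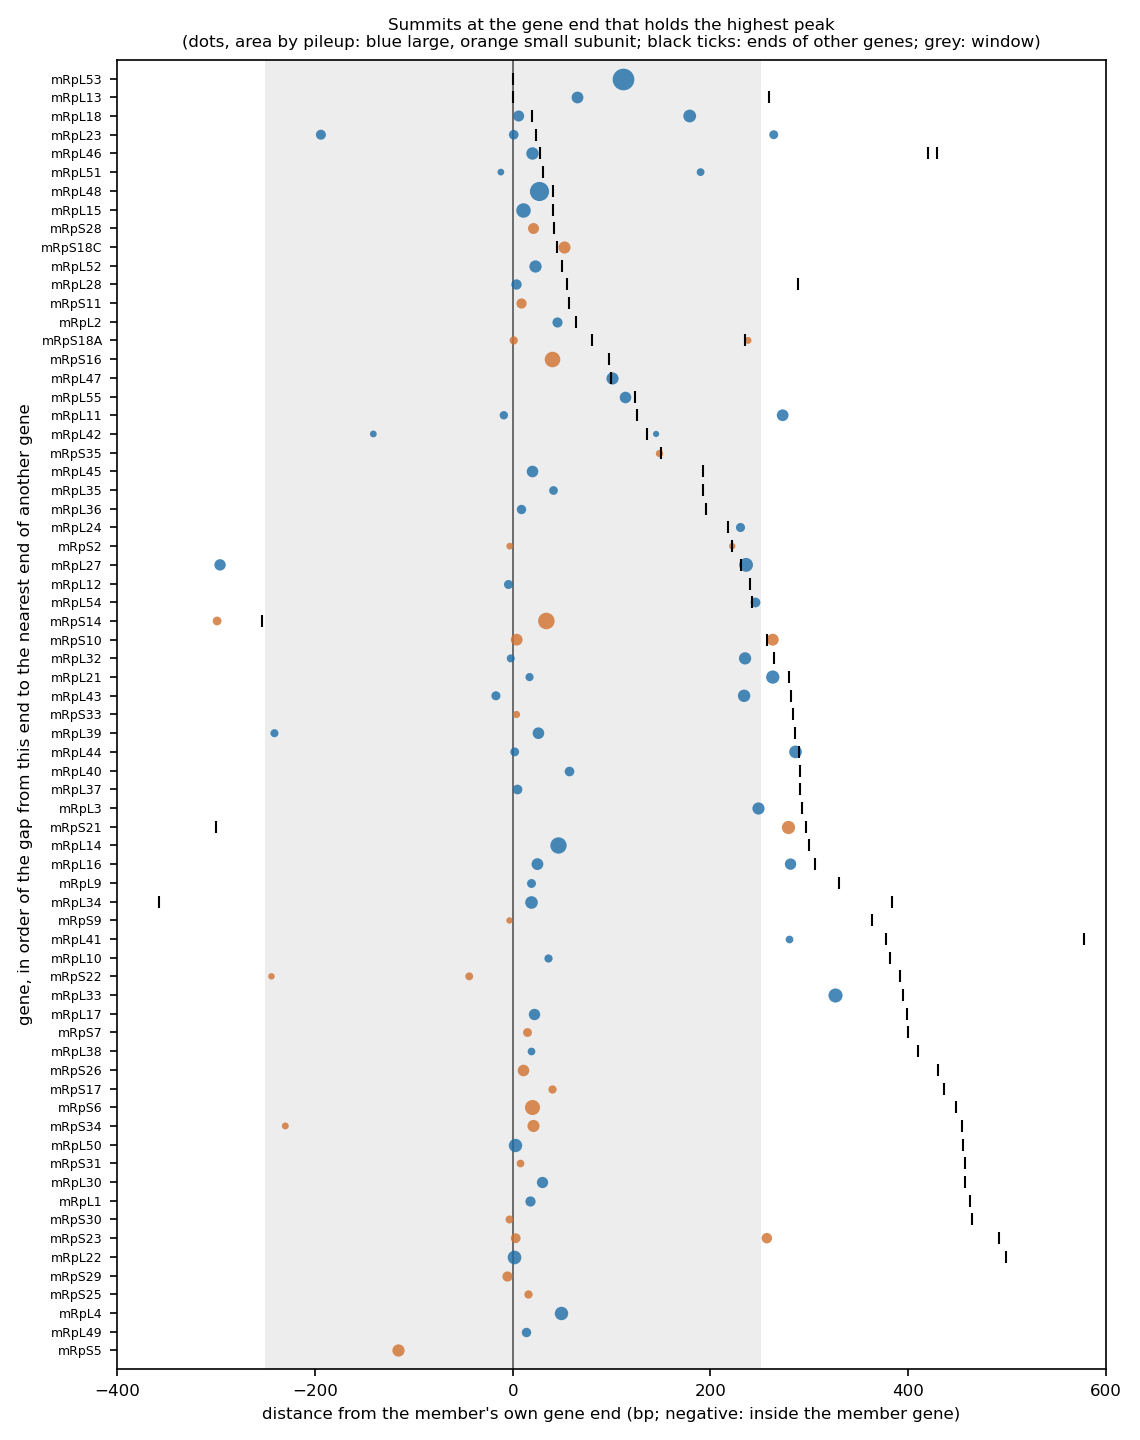
Position of each summit (bp, horizontal axis) relative to the gene end that holds the highest peak of each of 69 genes, negative values lying inside the gene; dot area follows the pileup, blue marks large and orange small subunit genes, black ticks the ends of other genes, and grey the window of 250 bp. The genes run from a gap of 0 bp to the nearest other end, at the top, to 1768 bp at mRpS5. Dots gather just right of 0 and again beside the ticks, at mRpL27, mRpL21, mRpL44 and others.

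Where 2 or more peaks reached the window of the same end, the spacing of neighbouring summits was mostly close to 250 bp. There were 22 such neighbouring pairs in 19 members, at a median distance of 255 bp, with quartiles of 237 and 278 bp and extremes of 173 and 532 bp. The 4481 pairs of all protein-coding genes had a median of 244 bp but a wider spread, with quartiles of 155 and 281 bp. Both peaks of a pair had to overlap the same window of 250 bp to either side of an end. The window thus limits the distances that can occur, and the spacing is partly set by it. In some pairs, such as those of mRpL21, mRpL44, mRpL32 and mRpS10, 1 summit lay beside the member's end and the other beside a neighbour's. At least 2 separate peaks in the windows of 1 gene were found in 24 members (32.9%, exact interval 22.3 to 44.9%) and in 25% of all protein-coding genes, which is near that share. Most were mRpS18A and mRpL27 with 4 peaks each, then mRpS14, mRpL21 and mRpL23 with 3 each. At mRpS18A the 4 summits had 37, 38, 51 and 35 fragments and lay 170 bp outside and 141 bp inside the left end, and 1 bp and 238 bp outside the right end. At mRpL16 a summit of 103 stood 25 bp from the gene and another of 96 stood 281 bp away, toward trr, an H3K4 methyltransferase gene.

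The peak sat more often at the gene end farther from the nearest end of another gene, as it did among all genes. This distance, the gap, was taken in either direction, so it can cross the gene itself or reach an end inside it. It is therefore not always free space beside the end. At mRpL49, for example, the gaps of 881 and 44 bp both led to Brms1. Among the 59 members with a peak at 1 end, it was at the end with the wider gap to the next gene end in 42 (71.2%, exact interval 57.9 to 82.2%), against 60.6% of all genes with a peak at 1 end, a share inside that interval. The gap had a median of 290 bp at the ends with a peak and 56 bp at the ends without, against 319 and 172 bp for all such genes. An annotated end of another gene, start or finish, lay less than 100 bp from the end without a peak in 43 of 59 members (72.9%) and in 38.2% of all such genes. For the end with the peak this held in 15 members (25.4%) and in 17.1% of all such genes. The members were thus the more crowded at both ends. At mRpL22, the end with the peak was 499 bp from the next gene and the other end 23 bp from CG9609. At mRpL50 these gaps were 455 and 59 bp. mRpL15 went the other way by a few bp only. Its peak lay in the gap of 41 bp to CtIP, a DNA end resection gene, and its other end was 46 bp from Psn. The comparison of gaps was chosen after the values were seen.

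These genes are short and crowded, and among other genes peaks were less frequent in short ones and more frequent in crowded ones. Their median length was 909 bp, against 2173 bp for the other 13873 protein-coding genes. Another gene's end lay within 100 bp of an end in 55 members (75.3%) and in 36.6% of the others. Within every class of length the share with a peak was nevertheless higher among the members. Of genes under 700 bp a peak was found in 15 of 15 members and in 27% of 1259 others. At 700 to 999 bp it was found in 24 of 27 members (88.9%, exact interval 70.8 to 97.6%) and 39.7% of others. At 1000 to 1499 bp the shares were 95.8% of 24 members and 53.7% of others, and at 1500 bp or more 7 of 7 members and 69.4% of others. Among genes with another end closer than 100 bp, 53 of 55 members (96.4%, 87.5 to 99.6%) and 71.2% of 5079 others had a peak. The classes with wider gaps held 9, 8 and 1 members. These are descriptions of 1 list without a test.

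**Figure D4:**
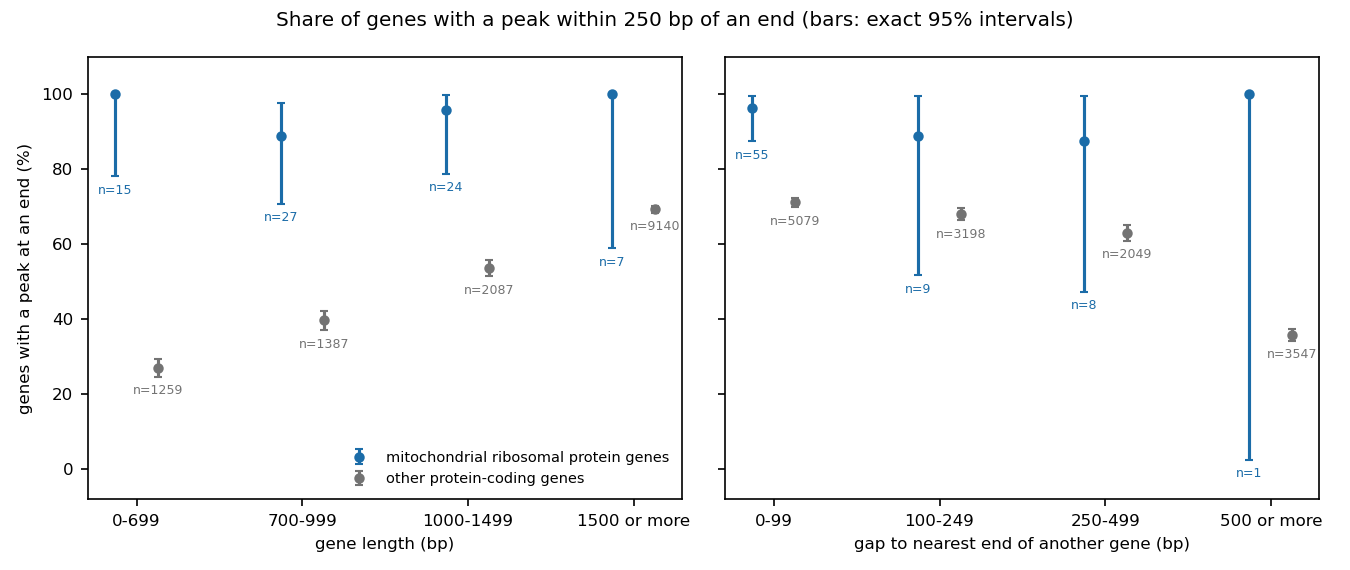
Share of genes with a peak within 250 bp of an end (%, vertical axis) by gene length (left) and by the gap to the nearest end of another gene (right), with mitochondrial ribosomal protein genes in blue and other protein-coding genes in grey; bars are exact 95% binomial intervals and n is the number of genes. For the members under 700 bp the share is 100%, against 27% for the others, while the class with gaps of 500 bp or more has 1 member.

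The members' share with a peak was higher than that of all protein-coding genes under each other definition. With windows of 100 bp it was 65 of 73 (89%), against 53.8%, and the 4 genes lost were mRpL24, mRpL33, mRpL41 and mRpL54, whose summits lay 230 to 326 bp out. With windows of 500 bp it was 70 (95.9%), against 66%, and with 1000 bp 72 (98.6%), against 71.9%, leaving mRpL20 alone without. Among peaks with a −log10 q of at least 10 it was 63 (86.3%), against 53.1%. Among peaks with a fold at or above the median of all summits, 3.61, it was 62 (84.9%), against 51.3%. With the summit itself required in the window it was 67 (91.8%), against 57.8%. Counting only ends more than 1000 bp from any other gene's end left 4 members. Of these mRpL13, mRpL21 and mRpS5 had a peak there and mRpL12, the gene of the factor-recruiting stalk protein, did not, against 30.3% of 5698 protein-coding genes. The peak at the isolated end of mRpL21 was weak, with a pileup of 21 and a fold of 2.02.

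Members were found on X and on all large autosome arms, and on each most had a peak. It was 11 of 11 on X, 11 of 12 on 2L, 12 of 12 on 2R, 16 of 17 on 3L and 19 of 21 on 3R. The median pileup was 103 on X (range 44 to 202), 79 on 2L, 100 on 2R, 99.5 on 3L and 77 on 3R, with ranges that overlapped. On X 6 of the 11 highest summits (54.5%) stood on the lowest, genome-wide background, a share near the 53.1% of all 1325 protein-coding genes on X with a peak. Over all chromosomes it was 26.1% of members and 30% of all protein-coding genes with a peak.

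Other genes that mitochondrial protein synthesis needs had peaks at similar shares. Both mitochondrial ribosomal protein genes with names of their own had one: tko, the gene for S12 at the decoding centre, with 148 fragments, and bonsai, the gene for S15, with 115. Of 9 mitochondrial translation factor genes 8 had a peak, led by the initiation factor gene mIF2 with 187 and waw, an elongation factor-like GTPase gene, with 179, while mRRF1, for ribosome recycling, had none. Of 16 mitochondrial aminoacyl-tRNA synthetase genes and relatives 14 had a peak, led by LeuRS-m with 325 and AspRS-m with 173. The exceptions were GluRS-m and Slimp, a paralog of a seryl-tRNA synthetase. All 12 genes of mitochondrial DNA upkeep and transcription had a peak, led by mtSSB, for the single-strand binding protein, with 179 and mTerf3 with 155. TFAM, the packaging and transcription factor gene, had 130 and PolrMT, the mitochondrial RNA polymerase gene, 83. These orders are by pileup, and not all of the leading summits lay at the gene end. The mtSSB summit lay 329 bp outside the end, beyond the window of 250 bp that its peak reached. The fold of mtSSB, 3.13, was the lowest of the 12. The AspRS-m summit lay inside the gene, also beyond the window, and the mIF2 summit 237 bp outside the end. The median pileup was 115 for the translation factors, 84 for the synthetases and 93 for DNA upkeep and transcription, around the 96 of the ribosomal members and the 98 of all protein-coding genes with a peak.

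Beside other large protein assemblies the mitochondrial ribosome had a share close to those of the cytosolic ribosome and the proteasome and above that of complex I, and its median height stood between that of complex I and those of the proteasome and the cytosolic ribosome. A peak at an end was found in 94.5% of the members, in 95.5% of 88 cytosolic ribosomal protein genes (symbols with RpL or RpS and a digit), in 96.9% of 32 proteasome genes and in 82.5% of 40 respiratory complex I genes. The exact interval for complex I, 67.2 to 92.7%, overlaps the members' 86.6 to 98.5%. Complex I genes were all those with symbols in ND-, while the proteasome genes were a list of named genes without testis paralogs. The shares of these sets thus come from unlike choices of genes. The median pileup was 96 (95% interval of the median 74 to 108) for the members, 124 (103 to 137) for the cytosolic ribosome, 113 (93 to 141) for the proteasome and 79 (62 to 117) for complex I. The median fold was 6.06 for the members, 8.68 for the cytosolic ribosome, 8.18 for the proteasome and 5.77 for complex I. All of these intervals of the median overlap that of the members, and the differences were not tested.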

How the data were processed

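The authors deposited 1 peak list with 1 line for each of 35535 summits in 28292 intervals. Bowtie2, MACS2, deepTools and dm6 are named, per the submitters' processing notes, with no versions or settings; how the 2 libraries were combined is not given in the sources used here. The fold enrichment (a ratio), −log10 p and −log10 q columns were used as deposited, and the deposited score column was not used. Library depth is unknown. Pileup and background were solved from fold and −log10 p (Poisson upper tail, pseudocount 1), within 0.001 for 35535 of 35535 summits, and checked on simulated summits. Fragments is the word in the peaks' names. Poisson intervals cover counting error only, at a level of 95%; intervals of shares are Clopper-Pearson and those of medians use order statistics.

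A peak counted for a gene when its interval overlapped a window of 250 bp around an annotated end by 1 bp or more. A gene's highest summit among these peaks gave its pileup. All 17807 genes on 7 chromosomes counted as neighbours. Strand and sequence were not used here, so the planned motif search and the start-only alternative were not run. Of the listed genes of mitochondrial gene expression, 6 symbols had no match. Named genes are those without a peak, the 10 highest and 5 lowest members, those with most summits, and the neighbours their peaks reach; further names were picked with their values in view. The members and lists were chosen with earlier results of these data known. Python 3.11.15, numpy 2.4.6, pandas 2.3.3, scipy 1.17.1 and matplotlib 3.10.9 were used.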

Additional observations from a re-analysis of the deposited data

How the results depend on the processing

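Of 38 values under other settings, 25 stayed within the 95% interval of the reported value or, for counts, within 1.5 times. The share of members with a peak, 94.5% as reported, was 98.6% with windows of 1000 bp, 86.3% with the −log10 q threshold of 10, 84.9% with the fold threshold of 3.61 and 75% at isolated ends, where 4 genes counted. The 10 members with peaks at both ends became 6, 19 and 49 with windows of 100, 500 and 1000 bp, 6 at the q threshold and 5 at the fold threshold. The 46 shared highest peaks became 23 and 72 with windows of 100 and 1000 bp, since a wider window takes in more ends by construction. With the summit nearest to the end, an alternative added after the data were seen, the median pileup was 71 in place of 96 and the median fold 5.2 in place of 6.06; lower pileups follow from the choice. Leaving out a library and a replicate block were not possible with 1 list for both libraries.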

Other observations

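Several genes whose end windows the members' peaks reached encode mitochondrial proteins themselves. They were picked out after the values were seen, and how often such neighbours occur elsewhere was not counted. The highest peak of mRpL18, with 121 fragments, reached the end of Taz, the gene for tafazzin, which remodels the mitochondrial lipid cardiolipin, 20 bp from mRpL18. That of mRpL32, with 111, lay 29 bp from qless, a gene of ubiquinone synthesis. That of mRpL11, with 102, reached HtrA2, a mitochondrial protease gene, 126 bp from mRpL11. That of mRpL35, with 56, stood in the gap of 192 bp to Mitofilin, a gene for a protein that shapes the cristae, 41 bp from mRpL35 and 151 bp from Mitofilin.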
